A study of Drosophila melanogaster with 24 samples.

Results

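The genes described here encode the initiation, elongation and release factors of cytosolic translation in the fly Drosophila melanogaster. They were chosen by name, as the rows of the authors' deposited table whose symbol begins with eIF, eEF or eRF, which gave 50 of 13234 genes. The table comes from messenger RNA of fat body, the insect tissue that stores fat and glycogen and secretes yolk and immune proteins, dissected from virgin females of the strain w1118. The design has 24 libraries in 4 groups of 6, made of flies held at 11 °C with S-methoprene, at 11 °C with ethanol, at 25 °C with S-methoprene or at 25 °C with ethanol, where S-methoprene is a juvenile hormone analogue and ethanol its vehicle. All flies were reared at 25 °C, were then kept for 25 days in their condition, and received 10 µL of vapourised ethanol or hormone solution every 2 days, so that ethanol reached every group. A library pooled the fat bodies of 25 flies, and flies were kept only where the ovary had the form their condition called for, which was a regressed ovary at 11 °C with ethanol and a large one in every other group.

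Translation factors are the proteins that bring the ribosome to a messenger RNA, move it codon by codon and release the finished chain. During initiation, eIF4F binds the cap, eIF2 brings the initiator tRNA, and the large eIF3 complex holds the small ribosomal subunit and the mRNA together. During elongation, eEF1 delivers aminoacyl-tRNA and eEF2 moves the ribosome on, and at a stop codon eRF1 and eRF3 end the chain. The fat body of a reproducing female makes large amounts of secreted yolk protein, and its protein synthesis is known to respond to nutrition and hormones.

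The authors' deposited table gives, for each gene, 1 mean of normalised read counts over libraries, 1 log2 fold change, its standard error (SE) and an adjusted p-value. It names neither the factor compared nor the direction, so levels are described as higher or lower on the positive side of the comparison, meaning the group of libraries that a positive fold change favours. This wording assumes that the fold change compares sets of libraries, which the sources used here do not state. Which groups entered the comparison is not stated either. No temperature or treatment was assigned to a side. Values per library were not analysed here, so the spread between libraries enters only through the deposited SE, the depth of each library is unknown, and 95% intervals below are the deposited fold change plus and minus 1.96 SE. A gene was called where the authors' adjusted p was under 0.05. Nothing in the labels says that replicates came from separate cultures, so p-values measure the spread between these pooled samples.

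The translation factor genes were lower on the positive side as a group. The authors' deposited table gave 47 of the 50 genes an adjusted p-value. Of these 47, 0 were called higher and 31 were called lower on the positive side, and 16 were not called. Among all genes with an adjusted p-value, 27.0% of 11399 genes were called higher and 22.0% lower on the positive side, so the count of lower calls among translation factors lay well above the background and the count of higher calls below it. The median log2 fold change was -0.58 over the 47 genes and 0.07 over all 11399 tested genes of the deposited table. Of the 25 translation factor genes with a mean of at least 1000, 0 were called higher and 19 lower on the positive side, with a median of -0.66 against -0.15 for all 846 genes of that level. Abundant genes in general were more often lower, since 23.0% of these 846 were called higher and 42.0% lower.

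Most changes were moderate in size and precisely estimated. With a change of at least 1.5-fold required as well, 23 translation factor genes were called lower and 0 higher on the positive side, where 12.5% of all genes passed as lower and 18.8% as higher. Only 5 of the called genes were at least 2-fold lower, namely eIF4E3, eEF1beta, eIF3h, eEF1gamma and eIF3m. The log2 fold changes of the 40 genes with a mean of at least 100 had an SD of 0.41 among themselves, against a median deposited SE of 0.10. Among all 11399 tested genes, 6 of the 100 with the smallest deposited p-values were translation factors. By that order eIF3h stood at rank 23, eEF1gamma at 39, eIF3m at 44, eEF1alpha1 at 47, eIF3b at 84 and eIF2gamma at 89.

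Abundance spanned a wide range. The 50 genes together held 3.52% of the summed means of all genes in the deposited table, and the 7 elongation factor genes alone held 2.40%. Divided by the median length of each gene's annotated transcripts, eEF1alpha1 had the highest level of the genes described, with 27838 normalised counts per kb, followed by eEF2 with 11920, eEF1gamma with 8995, eEF1beta with 6412, eIF4A with 5280 and eEF5 with 4759. The eIF3 subunits lay lower and closer together, from 284 per kb for eIF3j to 1796 per kb for eIF3f1. The eIF2B subunits were lower again, from 65.95 per kb for eIF2Balpha to 123 per kb for eIF2Bbeta. These levels are means over libraries of both sides and carry no error here.

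**Figure D1:**
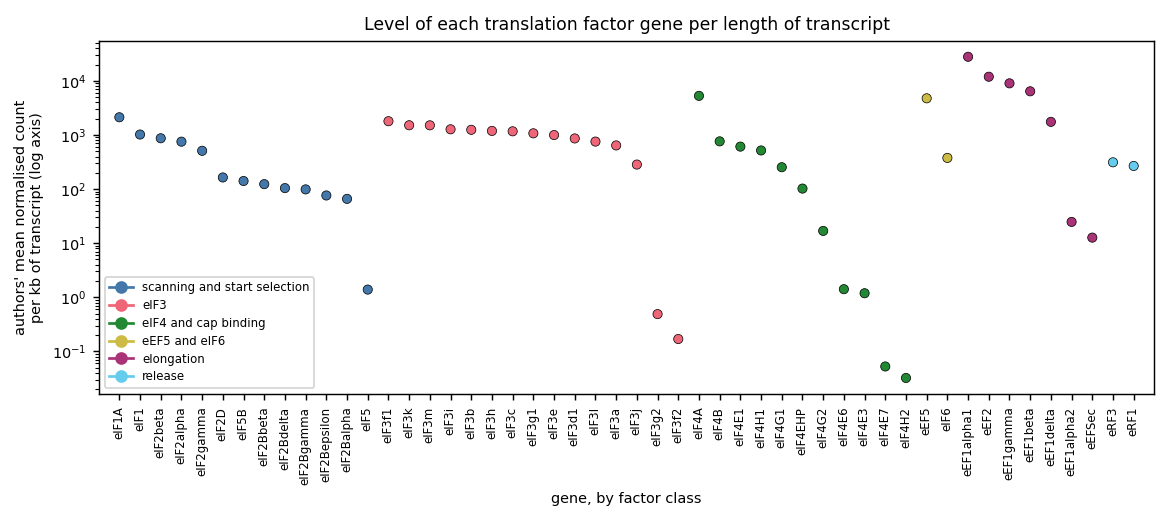
Level of each translation factor gene, as the authors' mean normalised count divided by the median length of its annotated transcripts in kb (vertical log axis), with the 50 genes in order of level within each colour-coded factor class. The elongation factor eEF1alpha1 stands highest at 27838 per kb, 13 eIF3 subunits lie between 284 and 1796, and the paralogues eIF4E7 and eIF4H2 lie lowest.

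Initiation begins with the factors that carry the initiator tRNA and select the start codon. Of 13 genes in this class 0 were called higher and 8 lower on the positive side, with a median log2 fold change of -0.29. The lower share of 61.5% stands beside 22.0% of all genes, of which 27.0% were called higher. The 3 subunits of eIF2, the GTPase complex that delivers the initiator tRNA, were all called lower in the authors' deposited table. Its GTP- and tRNA-binding subunit eIF2gamma had a mean of 980 and stood at -0.96 (SE 0.08, adjusted p = 7.33e-28), which is 1.95-fold lower on the positive side. The regulatory subunit eIF2alpha, the target of the stress kinases, stood at -0.59 (SE 0.09, adjusted p = 4.5e-09) with a mean of 1022 in the deposited table. The subunit eIF2beta was nearly level with it, at -0.60 (SE 0.10, adjusted p = 5.05e-09) with a mean of 980. The 95% interval of eIF2gamma ran from -1.13 to -0.80 and did not overlap that of eIF2alpha, from -0.78 to -0.41, or that of eIF2beta, from -0.79 to -0.41.

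Of the 5 subunits of the exchange factor eIF2B, which reloads eIF2 with GTP, 0 were called higher and 3 lower on the positive side of the deposited comparison, with a median of -0.29. That is 60% lower, where 22.0% of all genes were called lower. The subunit eIF2Bbeta stood at -0.54 (SE 0.12, adjusted p = 5.56e-05), eIF2Balpha at -0.32 (SE 0.12, adjusted p = 0.0216) and the catalytic subunit eIF2Bepsilon at -0.29 (SE 0.10, adjusted p = 0.00966). The subunits eIF2Bgamma, at -0.11 (SE 0.09), and eIF2Bdelta, at -0.11 (SE 0.09), were not called in the deposited table. The intervals of all 5 eIF2B subunits lay above that of eIF2gamma, whose upper end was -0.80, but those of the 3 called subunits overlapped the intervals of eIF2alpha and eIF2beta.

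The small scanning factors were not called. The authors' deposited table put eIF1, which keeps the scanning ribosome open until a start codon is met, at -0.19 (SE 0.15, adjusted p = 0.306). Its partner eIF1A stood at 0.04 (SE 0.07, adjusted p = 0.628) with a mean of 2546. The GTPase of subunit joining, eIF5B, was called lower by a small amount, at -0.19 (SE 0.08, adjusted p = 0.0324) in the authors' deposited table. The tRNA-binding factor eIF2D was lower by more, at -0.69 (SE 0.11, adjusted p = 7.63e-09).

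The row for eIF5, the GTPase-activating protein of eIF2, stood apart by its level. Its mean in the authors' deposited table was 3.50, or 1.39 normalised counts per kb, where the other genes of the class lay between 65.95 and 2124 per kb. Its fold change of 0.74 (SE 0.48, adjusted p = 0.200) was not called. In the release 6 annotation eIF5 lies on the minus strand of the X chromosome from 15987008 to 15991974, and 2588 of its 3203 exonic bases, or 80.8%, are also exon of CG46312 on the same strand. CG46312 has no row under that name in the deposited table. The sources used here do not state how reads that fall in both genes were counted, and the part of this overlap in the low level was not tested.

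The eIF3 genes that were called were all lower on the positive side. Of 14 eIF3 genes tested in the deposited table, 0 were called higher and 12 lower on the positive side, with a median log2 fold change of -0.73. The lower share was 85.7%, against 22.0% of all genes and 42.0% of those with a mean of at least 1000. The 12 called genes are 12 of the 13 genes for distinct subunits, and the others of the class are the paralogues eIF3f2 and eIF3g2, which are barely expressed. The largest changes belonged to eIF3h and eIF3m, both subunits of the core that docks on the small ribosomal subunit. In the authors' deposited table eIF3h had a mean of 1590 and a log2 fold change of -1.37 (SE 0.09, 95% interval -1.55 to -1.18, adjusted p = 5.93e-46), 2.58-fold lower on the positive side. The eIF3h gene lies on 2L from 5051193 to 5053094 in the same annotation. The deposited value of eIF3m was -1.25 (SE 0.10, 95% interval -1.44 to -1.06, adjusted p = 1.3e-35), 2.38-fold lower, with a mean of 2244.

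A middle group of subunits followed. In the deposited table the core subunits eIF3c and eIF3b stood at -0.90 (SE 0.10) and -0.88 (SE 0.08), and eIF3e at -0.82 (SE 0.09). The loosely bound subunit eIF3j was at -0.79 (SE 0.11), eIF3k at -0.74 (SE 0.12), eIF3f1 at -0.71 (SE 0.13), eIF3g1 at -0.68 (SE 0.10), eIF3l at -0.66 (SE 0.09) and eIF3i at -0.59 (SE 0.12). The intervals of these 9 subunits overlapped widely, so their order within the group is not resolved.

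The subunits eIF3d1, known from human cells to contact the cap of some mRNAs, and eIF3a, the largest scaffold of the complex, changed least. The authors' deposited table gave eIF3d1 at -0.19 (SE 0.07, 95% interval -0.32 to -0.06, adjusted p = 0.0143) and eIF3a at -0.08 (SE 0.07, 95% interval -0.21 to 0.06, adjusted p = 0.364). Neither interval overlapped that of any subunit of the middle group, and the SE of each was among the smallest of the class. Levels per kb did not set them apart, with 863 for eIF3d1 and 641 for eIF3a against 754 for eIF3l and 997 for eIF3e.

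**Figure D2:**
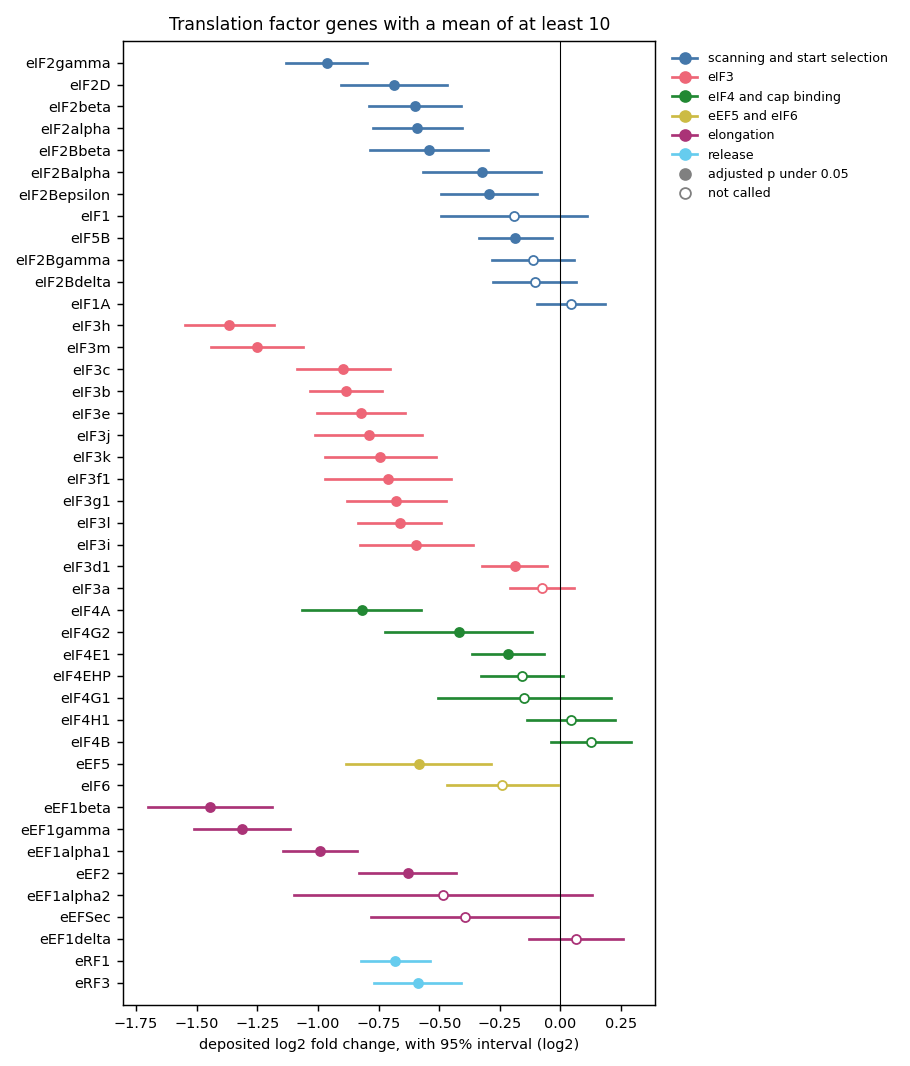
Deposited log2 fold change of the 43 translation factor genes with a mean of at least 10 (horizontal axis, log2), by factor class, with bars for the 95% interval from the deposited SE and filled points for genes with an adjusted p under 0.05. All but 4 points lie below 0, the points of eEF1beta and eIF3h lie farthest out, and eIF3a and eEF1delta lie near 0.

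The cap-binding and helicase group was split between its members. Of 9 genes tested in the deposited table, 0 were called higher and 4 lower on the positive side, with a median of -0.16. This lower share of 44.4% lies near the 42.0% of all genes with a mean of at least 1000, while 22.0% of all genes were called lower. Among the 4 is the paralogue eIF4E3, with a mean of only 1.24. The helicase eIF4A, which unwinds the 5' end of the mRNA, was the most abundant and was clearly lower, with a mean of 9995 and a log2 fold change of -0.82 (SE 0.12, 95% interval -1.07 to -0.58, adjusted p = 6.35e-10). The helicase cofactors did not go with it, as eIF4B stood at 0.13 (SE 0.08, adjusted p = 0.204) and eIF4H1 at 0.04 (SE 0.09, adjusted p = 0.726) in the authors' deposited table. The main cap-binding protein eIF4E1 was lower by a small amount, at -0.22 (SE 0.08, adjusted p = 0.0119) with a mean of 904. The scaffold eIF4G1, which bridges cap and ribosome, stood at -0.15 (SE 0.18, 95% interval -0.51 to 0.21, adjusted p = 0.516) in the deposited table and was not called. The cap-binding repressor eIF4EHP was at -0.16 (SE 0.09, adjusted p = 0.110). The intervals of eIF4B, eIF4H1, eIF4E1 and eIF4EHP all lay above that of eIF4A, and that of eIF4G1 did so as well.

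Paralogues in this group and in eIF3 were mostly near the limit of detection. In the authors' deposited table the scaffold paralogue eIF4G2 had a mean of 137 and stood at -0.42 (SE 0.15, adjusted p = 0.0163), and per kb it was 15.0 times less abundant than eIF4G1. The cap-binding paralogue eIF4E3 had a mean of 1.24 and the most negative value of all the genes described, -2.34, with a wide SE of 0.84 (adjusted p = 0.0141). Its paralogues eIF4E6, with a mean of 0.957, and eIF4E7, with a mean of 0.0863, were not called, and eIF4E7 had no adjusted p-value in the deposited table. The paralogues eIF3g2, eIF3f2 and eIF4H2 had deposited means of 0.479, 0.178 and 0.0597, and the last 2 had no adjusted p-value. Reads that match more than 1 copy could be assigned to either, and the sources used here do not state the authors' rule for them.

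Among the elongation factors, 4 of 7 genes were called lower on the positive side and 0 higher, with a median of -0.63. The lower share was 57.1%, against 22.0% of all genes and 42.0% of those with a mean of at least 1000. The GTPase eEF1alpha1, which brings aminoacyl-tRNA to the ribosome, was the most abundant of all translation factors, with a mean of 57138 or 1.21% of all means in the deposited table. Its log2 fold change was -0.99 (SE 0.08, 95% interval -1.14 to -0.84, adjusted p = 4.9e-35), which is 1.99-fold lower on the positive side. It lies on the plus strand of 2R from 11891135 to 11895762. In the authors' deposited table its exchange factor eEF1beta was lower by more, at -1.45 (SE 0.13, 95% interval -1.70 to -1.19, adjusted p = 2.37e-26) with a mean of 5671, 2.72-fold lower on the positive side. The scaffold of the exchange complex, eEF1gamma, stood at -1.31 (SE 0.10, 95% interval -1.51 to -1.11, adjusted p = 4.15e-36) with a mean of 15157.

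The remaining exchange subunit, eEF1delta, did not go with them. The authors' deposited table gave it a mean of 1551 and a log2 fold change of 0.06 (SE 0.10, 95% interval -0.13 to 0.26, adjusted p = 0.618). Its interval was separate from those of eEF1alpha1, eEF1beta and eEF1gamma. The paralogue eEF1alpha2, with a mean of 64.3, stood at -0.48 (SE 0.31, adjusted p = 0.193), and its interval of -1.10 to 0.13 overlapped that of eEF1alpha1, so the deposited values do not separate the 2 copies. Per kb eEF1alpha2 made up 0.0888% of their sum.

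The translocation GTPase eEF2 was lower as well, with a mean of 33602 and a log2 fold change of -0.63 (SE 0.10, 95% interval -0.83 to -0.43, adjusted p = 6.47e-09) in the authors' deposited table. Its interval lay above those of eEF1alpha1, eEF1beta and eEF1gamma. The selenocysteine factor eEFSec, with a mean of 20.5, stood at -0.40 (SE 0.20, adjusted p = 0.0816) and was not called. The hypusine-bearing factor eEF5, formerly named eIF5A, had a mean of 3567 and stood at -0.58 (SE 0.15, adjusted p = 0.000492) in the deposited table. The factor eIF6, which keeps the large subunit from joining too early, stood at -0.24 (SE 0.12, adjusted p = 0.0741) and was not called.

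Both release factors were called lower on the positive side, as were 22.0% of all genes. The stop codon reader eRF1 had a mean of 483 and stood at -0.68 (SE 0.07, adjusted p = 4.4e-19). Its GTPase partner eRF3 had a mean of 1007 and stood at -0.59 (SE 0.09, adjusted p = 1.87e-09) in the authors' deposited table. The intervals of the pair overlapped, from -0.82 to -0.54 for eRF1 and from -0.77 to -0.41 for eRF3, and their levels were 268 and 313 normalised counts per kb.

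**Figure D3:**
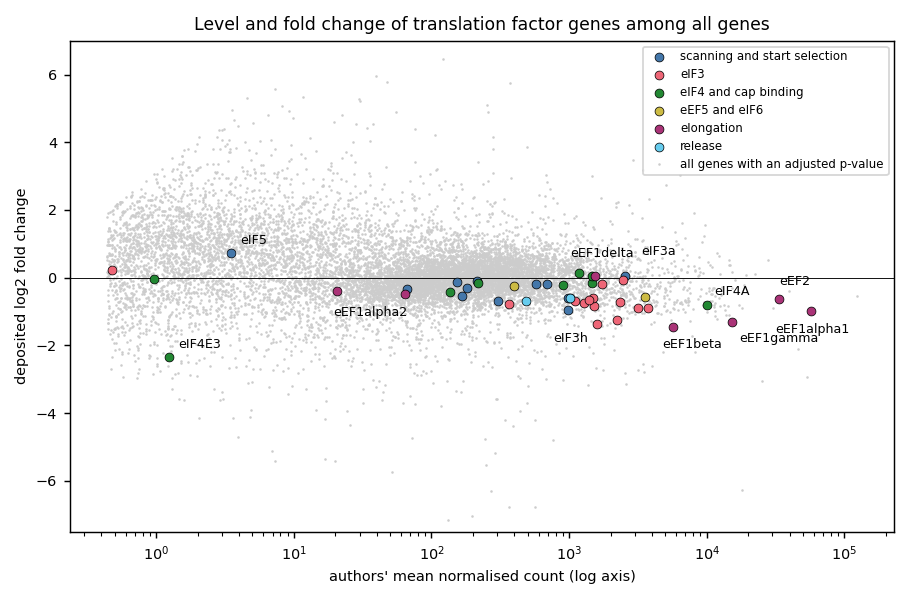
Deposited log2 fold change (vertical axis) against the authors' mean normalised count (horizontal log axis) for 47 translation factor genes, coloured by class, and for all 11399 tested genes, in grey. The translation factors with means above 1000 lie between -1.45 and 0.13, inside the range of all genes, and the low-mean genes eIF5 and eIF4E3 lie away from the rest.

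Fold changes in the deposited table also went with transcript length and level. Over the 40 translation factor genes with a mean of at least 100 the Spearman correlation across genes between median transcript length and log2 fold change was 0.138, against 0.374 over all 4887 genes of that level with a known length. Over the same 40 genes the correlation of level per kb with fold change was -0.451. These are descriptions, since all genes share the same libraries. To set each gene beside genes like it, the median fold change of genes in the same of 10 bins of mean and 5 bins of length was subtracted, and the p-value was computed again from the deposited SE. After this centring 3 translation factor genes were called higher and 26 lower on the positive side, with 21.6% of 10726 genes called higher and 20.9% lower. The median over the 47 genes was then -0.42, and 25 of the 31 genes called lower as deposited were also called lower after centring.

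Among genes with a mean of at least 10, several with short transcripts moved far. The value of eEF1beta moved to -0.79 (adjusted p = 1.5e-08) and that of eEF1delta to 0.71 (adjusted p = 1.17e-11), a higher call. For eEF1beta, eEF1delta, eIF3k, eIF3g1 and eEF5 the median subtracted was -0.65. Their bin held many ribosomal protein genes, which were mostly called lower. The higher call of eEF1delta, at 0.06 as deposited, thus says only that it was not lower as its bin was. The factors eIF4B, at 0.30 (adjusted p = 0.00142), and eIF1A, at 0.22 (adjusted p = 0.00735), were also called higher after centring. As deposited they stood at 0.13 and 0.04 and were not called. The median subtracted was -0.17 for both, so these calls too only place them above their bin. The calls of eIF3k (-0.09), eIF3g1 (-0.03), eIF3d1 (-0.04), eIF4E1 (-0.04), eIF2Balpha (-0.13) and eEF5 (0.067) were lost, each given here as its centred log2 value. For eIF3k, eIF3g1 and eEF5, in the bin with the median of -0.65, the loss says only that they were about as low as that bin. The scaffold eIF3a, with long transcripts, was called lower after centring, at -0.30 (adjusted p = 5.87e-05). The values of eIF3h (-1.19), eEF1gamma (-1.16), eIF3c (-1.12), eIF3m (-1.08), eIF3b (-0.91), eEF1alpha1 (-0.84), eIF2gamma (-0.81) and eRF3 (-0.81) stayed far below those of like genes on the same centred log2 scale.

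**Figure D4:**
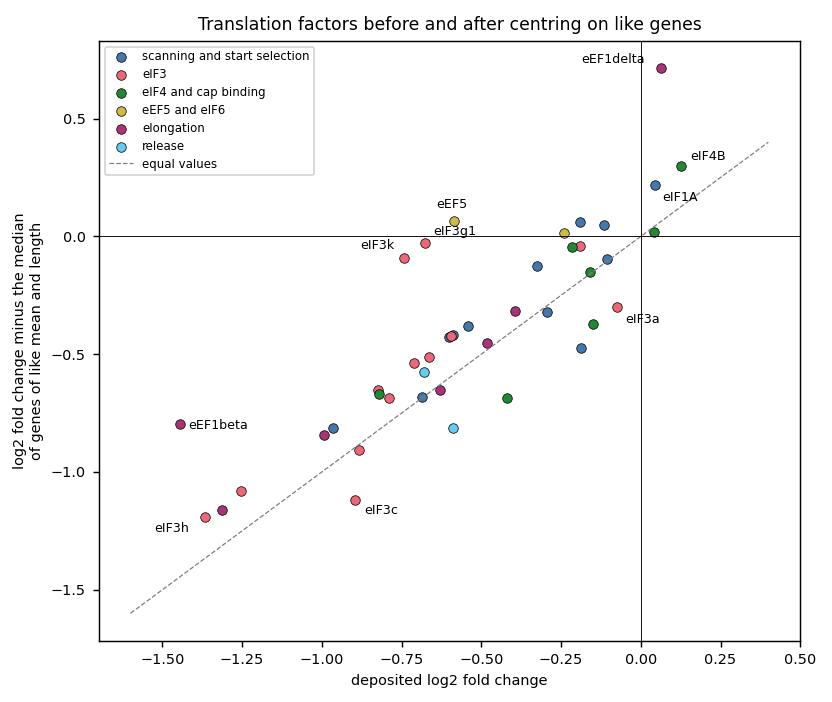
Log2 fold change of the 43 translation factor genes with a mean of at least 10 after subtracting the median of genes of like mean and length (vertical axis) against the deposited log2 fold change (horizontal axis), coloured by class, with a dashed line for equal values. Most genes stay near the line below 0, eEF1delta moves up to 0.71, and eEF5, eIF3g1 and eIF3k move close to 0.

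Other parts of the translation machinery were set beside the factors from lists chosen by role. Of 23 genes for cytosolic aminoacyl-tRNA synthetases, the enzymes that load tRNAs, and their scaffold proteins, 0 were called higher and 19 lower on the positive side (median log2 fold change -0.56). Their leading genes in the authors' deposited table were beta-PheRS at -0.85 (SE 0.08), TyrRS at -0.80 (SE 0.08) and ThrRS at -0.80 (SE 0.08). Of 87 cytosolic ribosomal protein genes 1 was called higher and 84 lower (median -0.79). The 1 higher gene was RpS19b, with a mean of only 4.79. Lower shares were 82.6% for the synthetase list and 96.6% for the ribosomal list. Over all genes 22.0% were called lower and 27.0% higher. Centring on like genes left 0 synthetase genes called higher and 20 lower, with a median of -0.55. It left 1 of 86 ribosomal protein genes called higher and 25 lower, with a median of -0.18. Over all genes the same centring called 21.6% higher and 20.9% lower. Many ribosomal protein genes fell in the same bin, whose median of -0.65 was the value of RpL35 itself. They were thus centred in part on each other, so the centred counts do not compare these lists on equal terms.

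Of 11 genes for factors of mitochondrial translation 0 were called higher and 5 lower on the positive side (median -0.26), which is 45.5% lower where 22.0% of all genes were. The release factor mRF1 stood at -1.53 (SE 0.14), the elongation factor mEFTu1 at -0.72 (SE 0.09) and the recycling factor mRRF2 at -0.97 (SE 0.17) in that deposited comparison. Of 15 mitochondrial tRNA synthetase genes 2 were higher and 6 lower (median -0.24), among them ArgRS-m at 0.45 (SE 0.12) and PheRS-m at -0.50 (SE 0.09) in the deposited table. These shares, 13.3% higher and 40% lower, stand beside 27.0% and 22.0% over all genes.

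Of 19 partners of the factors that carry other names 5 were called higher and 7 lower on the positive side (median -0.01). The higher share of 26.3% is that of all genes, 27.0%, and the lower share was 36.8% against 22.0%. The higher genes in the authors' deposited table included 4E-T, a repressor that binds eIF4E, at 0.59 (SE 0.08, adjusted p = 2.08e-11), the eIF5-mimic protein kra at 0.30 (SE 0.07, adjusted p = 3.45e-05) and the La-related protein larp at 0.42 (SE 0.11, adjusted p = 0.000335). The eIF4E-binding protein mxt, at 0.27 (SE 0.10), and the eIF4G relative NAT1, at 0.31 (SE 0.11), were the other genes called higher in the deposited table, named after their values were seen. The lower genes were led by the ribosome recycling factor pix at -1.18 (SE 0.09, adjusted p = 3.68e-34), the small-subunit protein Rack1 at -0.79 (SE 0.11, adjusted p = 5.65e-11) and vig at -0.57 (SE 0.08, adjusted p = 2.03e-10) in the authors' deposited table. The poly(A)-binding protein pAbp, which joins the tail of the mRNA to eIF4G, was also lower at -0.44 (SE 0.10). Centring on like genes ended the calls of larp, at 0.19 (adjusted p = 0.132), and NAT1, at 0.088 (adjusted p = 0.557).

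Of 14 regulators of initiation 5 were called higher and 4 lower on the positive side (median -0.06). These shares, 35.7% and 28.6%, lie near the 27.0% and 22.0% over all genes, so the counts say nothing particular about the list. The kinase Lk6, which phosphorylates eIF4E, stood at 0.52 (SE 0.10, adjusted p = 6.01e-07) and the ribosomal protein kinase S6k at 0.30 (SE 0.08, adjusted p = 0.000697) in the authors' deposited table. The stress-induced TOR inhibitor Sesn was the other leading higher gene, with an adjusted p of 2.47e-37. On the lower side were crc, the fly ATF4 that is translated when eIF2 is phosphorylated, at -0.87 (SE 0.10, adjusted p = 4.68e-16), and the TOR activator Rheb at -0.38 (SE 0.11, adjusted p = 0.00163), with its inhibitor gig at -0.44 (SE 0.13, adjusted p = 0.00265) in the deposited table. The 4E-binding protein Thor, the inhibitor of eIF4E1, stood at 0.17 (SE 0.12, adjusted p = 0.225) and was not called as deposited. Of the eIF2alpha kinases, PEK stood at 0.30 (SE 0.13, adjusted p = 0.0417) and Gcn2 at -0.09 (SE 0.12, adjusted p = 0.553) in the authors' deposited table. Centring on genes of like mean and length called Thor higher, at 0.82 (adjusted p = 6.56e-11). Its bin was that of eEF1delta, with many ribosomal protein genes called lower, so this call does not show a rise in Thor itself. The same centring ended the calls of S6k, at 0.076 (adjusted p = 0.477), Rheb, at -0.13 (adjusted p = 0.354), and PEK, at -0.013 (adjusted p = 0.952).

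Of 16 names listed for enzymes that modify factors or make the polyamine they need, 7 were in the deposited table. Of these 7 genes 1 was called higher and 4 lower on the positive side (median -0.45). These shares, 14.3% and 57.1%, stand beside 27.0% and 22.0% over all genes. Both enzymes of hypusine formation on eEF5 were lower in the authors' deposited table, nero at -0.45 (SE 0.12, adjusted p = 0.00081) and CG8005 at -0.55 (SE 0.17, adjusted p = 0.00284). The diphthamide enzyme Dph5, known from yeast to act on eEF2, stood at -0.58 (SE 0.19, adjusted p = 0.00565). Centring on like genes ended the calls of nero, at -0.20 (adjusted p = 0.176), and Dph5, at -0.33 (adjusted p = 0.147), and gave CG8005 no value, since its symbol was not matched to a length. The ornithine decarboxylase genes of polyamine synthesis went apart, Odc2 at 1.503 (SE 0.22, adjusted p = 4.72e-11) and Odc1 at -0.80 (SE 0.18, adjusted p = 6.21e-05) in the deposited table.

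**Figure D5:**
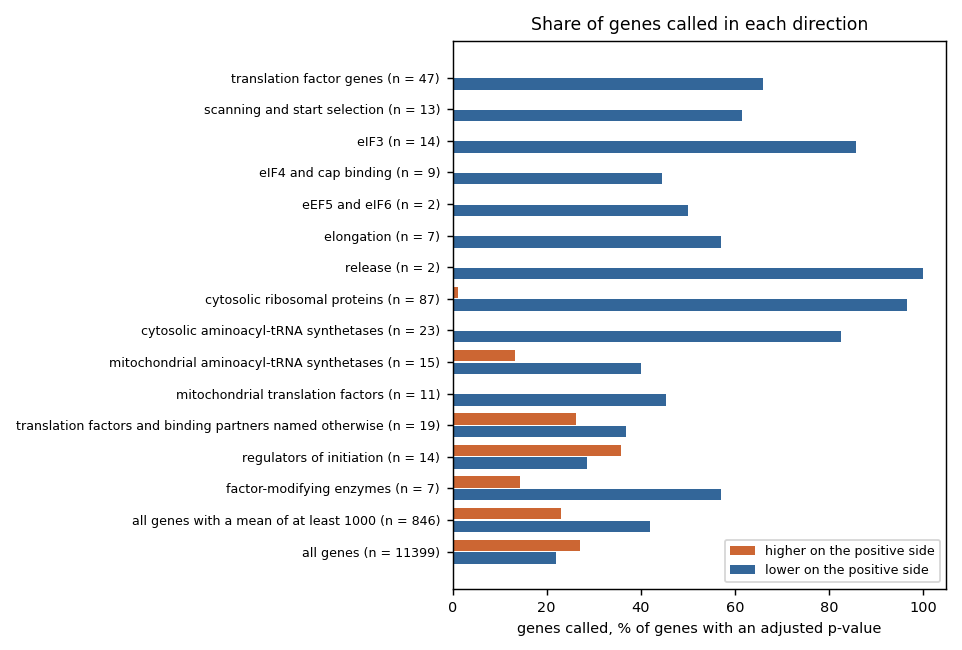
Share of genes called higher (orange) or lower (blue) on the positive side of the deposited comparison, in percent of the genes with an adjusted p-value (horizontal axis), for translation factor genes and their classes, for other lists of the translation machinery and for all genes, with n beside each name. Translation factor classes have no orange bar, whereas partners named otherwise, regulators of initiation and all genes have both.

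Some lists of cell type markers also differed between the sides of the deposited comparison. Over all genes 27.0% were called higher and 22.0% lower. Of 18 germline markers 2 were called higher and 10 lower on the positive side, with means that sum to 1872 normalised counts. Higher and lower calls were 14 and 0 of 22 muscle markers (sum 9364), 11 and 0 of 15 neuron markers (sum 1257), 4 and 0 of 8 hemocyte markers (sum 3015), and 3 and 4 of 9 gut markers (sum 79256). Fat body markers gave 3 and 6 of 14 (sum 170780). The higher shares of gut and fat body markers, 33.3% and 21.4%, lie near that of all genes, and their lower shares were 44.4% and 42.9%. The yolk protein genes Yp1, Yp2 and Yp3, among the fat body markers called lower, held most of the fat body sum with means of 25125, 53598 and 45994. Of the others the fatty acid synthase FASN1 stood at a mean of 19175 and the lipoprotein gene apolpp at 18112, while Lsp2 and Fbp1, known from larval fat body, were low at 8.37 and 3.38. The translation factor genes summed to 166318. Marker sums come from lists of different length and do not measure how much RNA a cell type gave. The gene srp, called higher, is counted in both the hemocyte and the fat body list. The part of other cell types in the translation factor values was not tested, and in tissue samples fewer cells of a type and less RNA per cell cannot be told apart.

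In the annotation 30 of the 50 genes shared no exonic base with another gene, and 4 shared more than 10% of theirs, namely eIF5, eIF3h, eIF2gamma and eIF2alpha. The gene eIF2gamma shares 352 bases with Su(var)3-9 on the same strand, whose mean was 39.0 and log2 fold change -0.17 (SE 0.15) in the authors' deposited table. The gene eIF3h shares 252 bases with senju on the other strand, whose deposited mean was 96.9 and log2 fold change 0.13 (SE 0.10). The gene eIF2alpha shares 192 bases with rngo on the other strand, whose deposited mean was 585 and log2 fold change -0.73 (SE 0.10, adjusted p = 6.43e-11), so reads of that pair may be mixed where strand was not used. Below 10%, 2 same-strand partners were themselves called. The gene eRF1 shares 189 bases with CG5618, whose deposited mean was 419 and log2 fold change -0.91 (SE 0.12). The gene eIF4G2 shares 779 bases with CG33111, whose deposited mean was 75.7 and log2 fold change 0.81 (SE 0.12), opposite in sign to that of eIF4G2.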

How the data were processed

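Fat body RNA came from 24 libraries, grouped by the labels. The submitters' processing notes name DESeq2, Bowtie2, Picard, SAMtools, cutadapt, Trim Galore and FastQC, with build dm6; their roles, the model, the strand setting and the read counter are not stated there. The authors deposited 1 table of 13234 genes. Per the file headers it holds a mean normalised count (a signal), a log2 fold change with its SE, a test statistic (a score), and a raw and an adjusted p-value. Checked on the values, the statistic is fold change over SE, p is normal and two-sided, and Benjamini-Hochberg adjustment ran over 11399 genes. A further 40 genes with no p-value and 1795 with no adjusted one stay uncalled. Depth per library is unknown.

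The design foresaw tests per library, and its case for a comparison made by the authors was used. Members and lists were chosen with earlier results of these data known. Every member is accounted for. Elongation, release and paralogue genes are given in full, and elsewhere those with the smallest adjusted p or highest mean, with up to 3 per side of each list. In the lists of the translation machinery, pAbp, mxt, NAT1, Thor, PEK, Gcn2, Dph5 and RpL35 were named outside this rule. Counts for lists cover only names found in the deposited table. These were 11 of 17 mitochondrial factors, 19 of 22 partners, 14 of 16 regulators and 7 of 16 modifying enzymes. Lengths and coordinates are from the Ensembl annotation of release 6 (dm6), which matched 12521 symbols (94.6%). Centring used pandas 2.3.3, numpy 2.4.6 and scipy 1.17.1 in Python 3.11.15. It was tested on simulated data with changes drawn independently between genes, which does not cover bins where many genes change together. Thresholds, filters on the mean, centrings and the adjustment were varied.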

Additional observations from a re-analysis of the deposited data

How the results depend on the processing

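Translation factor genes called lower on the positive side numbered 31 as deposited and between 23 and 34 under 8 other settings of threshold, filter, centring or adjustment. Those called higher numbered 0, except 3 after centring on genes of like mean and length, where the median was -0.42 and eEF5 turned to 0.067 and lost its call. The bin of eEF5 had a median of -0.65 and held many ribosomal protein genes called lower. This move thus does not show that eEF5 was unchanged. Leaving out genes that share at least 10% of their exonic bases, a setting chosen after seeing the data, gave 0 higher and 28 lower.

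By class, that centring gave 1 gene called higher in each of the start selection, eIF4 and elongation classes, and 0 lower among eEF5 and eIF6, which had 2 lower after subtraction of the median of all genes. A change of at least 1.5-fold left 4 lower start selection genes, 2 lower eIF4 genes and 0 of eEF5 and eIF6. Benjamini-Yekutieli adjustment left 5 lower start selection genes and 1 lower eIF4 gene, and an adjusted p under 0.01 left 1 lower eIF4 gene.

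In the other lists, centring on like genes left 25 ribosomal protein genes lower, 3 regulators higher, and 2 modifying enzymes higher and 1 lower. At least 1.5-fold left 11 lower tRNA synthetase genes, 0 higher and 1 lower mitochondrial synthetase gene, 3 lower mitochondrial factors, 1 higher and 2 lower partners, 1 higher and 1 lower regulator, and 1 lower modifying enzyme. A mean of at least 100 left 1 higher and 2 lower mitochondrial synthetase genes, 3 lower mitochondrial factors, 0 higher modifying enzymes and 0 higher ribosomal protein genes, the last also at a mean of at least 10. Subtraction of the median of all genes, Benjamini-Yekutieli adjustment and an adjusted p under 0.01 each left 3 higher partners (5 as deposited) and 3 higher regulators, and Benjamini-Yekutieli adjustment left 3 lower mitochondrial factors. The cause of these moves was not tested, beyond the fewer genes that stricter settings leave. No paired analysis was possible because the deposited comparison has no values per library, and leaving out replicates was not run for the same reason.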
